A study of Bos indicus with 72 samples.

Results

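ENSBTAG00000015274 is the gene with the most reads in the pituitary gland of Brahman heifers, 1 gene of the 24616 in the count tables and of the 19339 with at least 1 pituitary read. It was chosen by its pituitary read count, so its level and its rank in the pituitary are given as a description and with no test. It ranked first in all 12 pituitary libraries. The files pair the identifier with no gene name, and no name, role, position or sequence is given for it here.

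The series holds RNA libraries of 6 tissues from 12 heifers of the Brahman breed, a Bos indicus beef breed, to compare tissues around puberty. The tissues are pituitary gland, hypothalamus, left ovary, right ovary, liver and uterus, each with 6 post-puberty and 6 pre-puberty libraries by its labels, 1 per animal. No treatment, genotype or age is labelled. Animals 2054 and 2059 carry opposite labels in liver and uterus from those in the other 4 tissues. Both were left out of the uterus comparison, which rests on 5 against 5 heifers, and no test was made in the liver. In the other 4 tissues 2059 is labelled post-puberty and 2054 pre-puberty. The libraries are of bulk tissue, so fewer cells of a type and less RNA per cell cannot be told apart.

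As background, the anterior pituitary is a gland of several secretory cell types, each of which makes mainly its own peptide hormone, and hypothalamic factors carried by the portal blood control them. At puberty, pulses of gonadotropin-releasing hormone from the hypothalamus drive the gonadotropins, which act on the ovary, and ovarian steroids act in turn on uterus, liver and brain. Glands of this kind often spend a large part of their messenger RNA on few secreted products. Whether this gene is such a product was not tested, since the identifiers could not be matched to the hormone and cell type markers, and the tissue labels could not be checked against markers for the same reason.

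The number of reads in genes differed between tissues. It was 4.43 to 9.76 M (mega-reads) per pituitary library and 4.84 to 10.4 M per hypothalamus library. Ovary libraries held only 184808 to 334454 each. All listed reads, in a gene or not, averaged 18.5 M per pituitary and 24.2 M per hypothalamus library. They averaged 36.9 M per left ovary and 37.1 M per right ovary library. Recovered library totals were 20.6 to 28.0 M in the uterus and 20.8 to 29.2 M in the liver. In pituitary, hypothalamus and ovaries no library was a duplicate of another in its group. Between any pair the chi-square of the counts averaged at least 2.89 per gene, above the value of about 1 that sampling noise gives. Liver and uterus libraries were not checked in this way.

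In the pituitary the gene took between 5.68% and 35.2% of all reads in genes. In post-puberty heifers its share was 11.3% in animal 2047, 5.68% in 2056, 35.2% in 2057, 14.4% in 2059, 16.3% in 2061 and 13.6% in 2064. In pre-puberty heifers it was 20.6% in animal 2046, 16.7% in 2048, 29.2% in 2049, 12.4% in 2054, 12.9% in 2055 and 8.91% in 2060. The highest library was 2057 in the post-puberty group, far above the 16.3% of the next, and 2049 in the pre-puberty group, where the next held 20.6%. The range of the pre-puberty group lay inside that of the post-puberty group. These shares stand for 374568 to 2073000 reads of the gene per library. Counting error is small beside the differences between animals: the exact 95% (Clopper-Pearson) interval of the share ran from 35.1% to 35.2% in library 2057 and from 5.67% to 5.70% in library 2056. Such intervals cover counting error only.

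**Figure D1:**
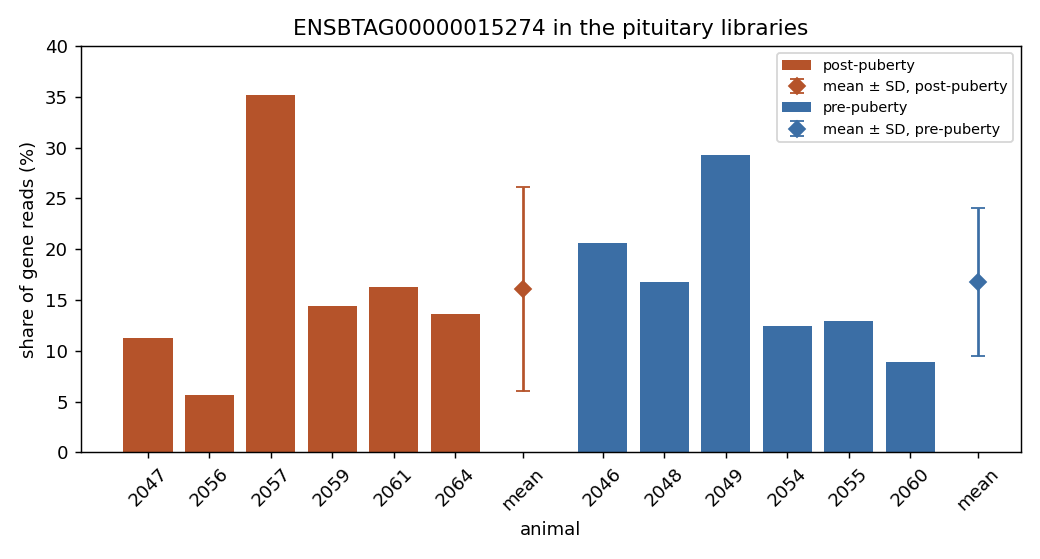
Share of gene reads (%) taken by ENSBTAG00000015274 in each pituitary library, with post-puberty heifers left and pre-puberty heifers right. Diamonds and bars are the group mean ± SD (n = 6 each), 16.1 ± 10.04% and 16.8 ± 7.29%, and libraries 2057 and 2049 are the highest of their groups.

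No difference in the share between post-puberty and pre-puberty heifers was shown beyond the spread of animals. Its mean was 16.1 ± 10.04% in post-puberty and 16.8 ± 7.29% in pre-puberty pituitaries (SD, n = 6 each), with medians of 14.0% post-puberty and 14.8% pre-puberty. The difference of -0.71 percentage points had a two-sided exact permutation p of 0.885 over 924 splits, where the smallest p possible is 0.00216. Within library set 1 (named in the file names) the mean share was 18.2 ± 15.3% post-puberty and 19.6 ± 8.53% pre-puberty, and within set 2 it was 14.0 ± 2.55% post-puberty and 14.0 ± 5.998% pre-puberty (SD, n = 3 each, where no p can fall below 0.1). The sign of the difference turned without 1 of the animals 2047, 2056, 2046 or 2049, and the difference was -4.52 points without 2057 and 1.78 points without 2049.

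A fit over the whole pituitary table gave a change near 0. On the log2 scale the gene was 0.02 lower in post-puberty than in pre-puberty pituitaries, with an SE of 0.46 (edgeR quasi-likelihood test, Benjamini-Hochberg adjusted p = 0.9999). An SE of that size leaves room for a change of either sign. None of the 13335 genes tested passed an adjusted p of 0.05 (0%), with 203 genes at an unadjusted p under 0.05, and DESeq2 and limma voom called 0 too. The estimate was -0.55 without 2057 and 0.28 without 2049, and it turned positive without 1 of the animals 2047, 2056, 2059, 2064, 2046 or 2049.

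Its lead over the next genes varied between libraries. Reads were not divided by gene length, so ranks here are ranks of reads, not of molecules. ENSBTAG00000017220, second by total reads, took 5.58 ± 1.59% of gene reads in post-puberty and 5.76 ± 0.999% in pre-puberty pituitaries (SD, n = 6 each). ENSBTAG00000007897, next in rank, took 3.15 ± 1.53% in post-puberty and 2.37 ± 1.499% in pre-puberty pituitaries. Reads of the first gene were between 1.15 and 10.3 times those of the next gene in the same library, with a median of 2.39. The smallest lead was in library 2056 and the largest in 2057. The 10 genes with the most reads together held between 18.9% and 44.5% of the gene reads of a library.

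Between animals the gene varied more than almost all other pituitary genes compared, which all had fewer reads. Relative to all other gene reads its level spanned 9.01-fold from the lowest to the highest library, with an SD of 0.85 on the log2 scale over 12 libraries. The median SD was 0.25 over the 10194 other genes with a mean of at least 10 CPM (counts per 1000000 reads, here over the gene reads other than this gene), and 98.9% of those genes had a lower SD than this gene. Among the next 100 genes by reads, whose median span was 1.59-fold, 3 had a higher SD. They are ENSBTAG00000007897, ENSBTAG00000010897 and ENSBTAG00000000507, named after their values were seen, with spans of 10.2-fold, 11.3-fold and 7.12-fold. Their Pearson r with the first gene was 0.19, 0.10 and 0.04 over the 12 libraries, at adjusted permutation p of at least 0.813. The wide spread lay inside both groups: the SD of the log2 level was 1.03 among post-puberty and 0.73 among pre-puberty heifers.

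In the hypothalamus, which lies next to the pituitary and controls it, the gene was close to absent in all but 1 library. The 6 post-puberty libraries held 5 reads (animal 2047), 3 (2056), 1 (2057), 0 (2059), 33 (2061) and 2 (2064). The 6 pre-puberty libraries held 0 reads (2046), 3 (2048), 1005 (2049), 1 (2054), 7 (2055) and 0 (2060). Of the 1060 reads in all, 94.8% came from the library of animal 2049, whose pituitary had the second highest share. There the gene ranked 1369 and reached 121.7 CPM (exact 95% interval 114.3 to 129.4 CPM), against 3.89 CPM in library 2061 and at most 1.03 CPM in the other 10 libraries. Libraries without a read allow up to 0.421 CPM each (3 reads).

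Library 2049 also held more reads of ENSBTAG00000017220 and ENSBTAG00000007897 than the remaining hypothalamus libraries. ENSBTAG00000017220 had 73 reads there, against 7 in library 2061, 2 in library 2055 and 0 in the other libraries. Taking the 7 other genes, ENSBTAG00000017220 among them, that reached 300 CPM in the pituitary and at least 300 times their hypothalamus median, 6 were highest in library 2049. The share of all hypothalamus genes that were highest in that library is not given here, so this count has no background. The summed level of the 7 genes was 64.0 CPM in library 2049, against 15.9 to 33.5 CPM in the other 11 hypothalamus libraries. Most of that sum is ENSBTAG00000007897, which was read in every hypothalamus and gave 391 of the 529 reads in library 2049. Without it, the other 6 genes summed to 16.7 CPM (138 reads) in library 2049, against 0.842 to 10.96 CPM (7 to 55 reads) elsewhere. ENSBTAG00000017220 gave 8.84 of that 16.7 CPM, and the 10.96 CPM was in library 2047, which held 0 reads of it. With both genes left out, the summed level was thus not highest in library 2049. That list was chosen from these values, and the part of these genes' levels in the count of 1005 reads was not tested.

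The hypothalamus level averaged 0.933 ± 1.49 CPM in post-puberty and 20.5 ± 49.6 CPM in pre-puberty heifers (SD, n = 6 each). The row did not pass edgeR's filter on low counts, so an exact permutation test of the mean CPM was used, with a two-sided p of 0.810 for the difference of -19.6 CPM. Without library 2049 the difference was 0.681 CPM, post-puberty higher, with an exact p of 0.463. No gene of the 13713 tested passed in the hypothalamus (0%), with 475 at an unadjusted p under 0.05 in edgeR and 0 calls by DESeq2 and limma voom.

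The difference of the change with puberty between pituitary and hypothalamus came from a joint fit, which the gene enters only through its pituitary counts, so the values are given as a description. In the fit without the animal it was 4.34 on the log2 scale with an SE of 1.74 (edgeR, adjusted p = 0.99997 over 14502 genes, of which 0% were called). With the animal as a block it was 0.80 with an SE of 1.69. Without animal 2049 it was -1.47.

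Within an animal the hypothalamus level ranged from 0 to 0.0416% of its pituitary level in CPM, the highest value again being that of animal 2049. Over the 12 animals, paired by labelled number, the log2 levels in the 2 tissues gave a Pearson r of 0.30 (permutation p = 0.331) and a Spearman's rho of 0.12 (permutation p = 0.718). The hypothalamus level was taken after adding 0.5 reads, so the 3 libraries with 0 reads are placed by their gene reads alone. As 10 of the 12 hypothalamus libraries held 7 reads or fewer, most of these levels lie near the floor. Pearson's r was 0.64 without 2056 and 2057, the 2 animals farthest from the median pituitary level, and -0.12 without 2049. Within library sets 1 and 2 it was 0.31 and 0.09. This was the 1 relation of its kind computed.

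By the length found for it, the uterus held single reads of the gene. Its deposited values are sizes of log2(RPKM + 0.001) without their sign (RPKM, reads per length of the gene and size of the library), so a library with 0 reads shows the highest deposited value, 9.97. All 10 values of the gene that were not at that ceiling gave whole reads when taken as below 1 RPKM, with a length of 902 bases, and 0 of 10 did so when taken as above 1 RPKM. The gene is at 0 RPKM in the liver, so its length came from these same uterus values. It is the shortest length at which every value gave whole reads on 1 reading or the other. Whole reads at 902 bases were thus set by that search and do not test it, and a multiple of that length would give more reads. Post-puberty uteri then held 4 reads (2047), 0 (2056), 1 (2057), 0 (2061) and 4 (2064), and pre-puberty uteri 6 (2046), 2 (2048), 9 (2049), 3 (2055) and 2 (2060). The 2 libraries whose labels conflict held 2 reads (2054, labelled post-puberty here) and 1 read (2059, labelled pre-puberty here). Library 2049 was again the highest, but the groups overlapped.

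Levels in the uterus averaged 0.0769 ± 0.0859 RPKM in post-puberty and 0.199 ± 0.131 RPKM in pre-puberty heifers (SD, n = 5 each). The difference was -0.27 on the log2(RPKM + 0.5) scale, which understates changes of low genes, with a two-sided exact permutation p of 0.119 over 252 splits (the smallest possible is 0.00794). It was -0.79 with a pseudocount of 0.1 (exact p = 0.119) and -0.15 with a pseudocount of 1 (exact p = 0.103). In sums, at the length of 902 bases, post-puberty uteri held 9 reads and pre-puberty uteri 22. A difference was not shown at this depth.

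No read of the gene was counted in any of the 24 ovary libraries, and the gene is at 0 RPKM in all 12 liver libraries. With few gene reads, 1 ovary library allows a level of up to 8.97 to 16.2 CPM (3 reads). Over all 12 libraries of a side the limit was 1.16 CPM in the left and 0.947 CPM in the right ovary. By these limits the mean pituitary level of 164432 CPM was at least 141689-fold higher than the left and at least 173651-fold higher than the right ovary. Such bounds cover counting error only. The median percent of listed reads in no gene was 89.7% in the left and 89.8% in the right ovary, against 56.4% in the pituitary. Whether reads of this gene were among them was not tested. In the liver the limit of 3 reads lay between 0.114 and 0.160 RPKM per library, if the length found for the uterus holds. All values were 0 in post-puberty and in pre-puberty libraries of these tissues, so no test was made.

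**Figure D2:**
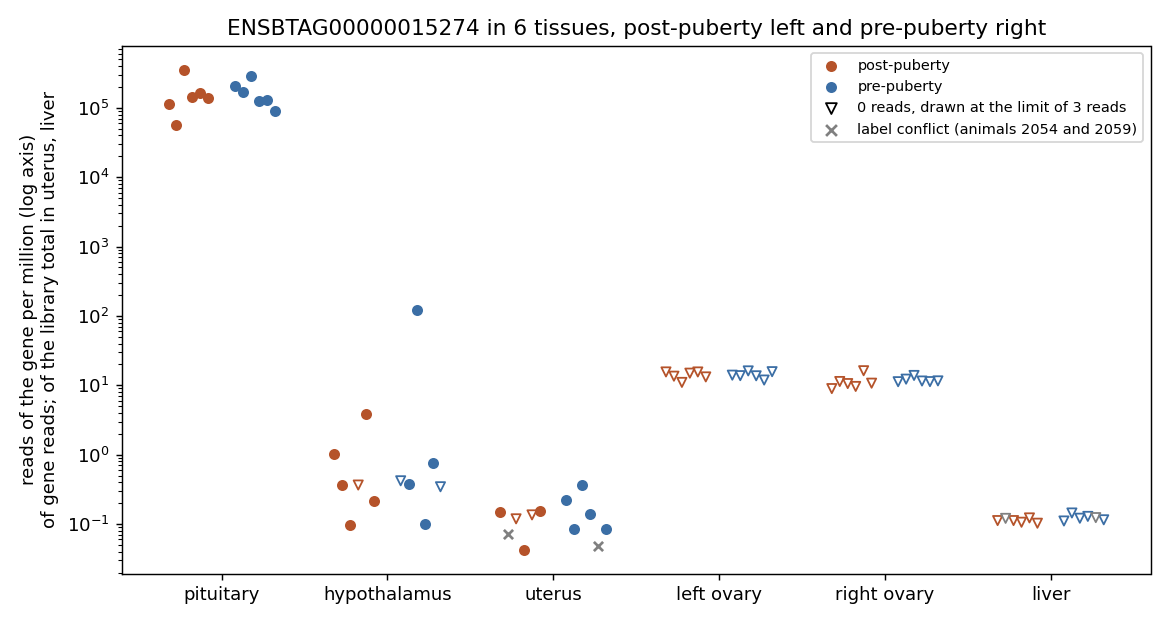
Level of ENSBTAG00000015274 in CPM (log axis) in every library of the 6 tissues, post-puberty left and pre-puberty right within a tissue. The scale is set by gene reads (CPM), or by the library total in uterus and liver. Open triangles are libraries with 0 reads, drawn at the limit of 3 reads, and crosses are the uterus libraries whose labels conflict. All 12 pituitary libraries lie between 56827 and 351733 CPM, and hypothalamus library 2049 stands alone at 121.7 CPM.

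The order of tissues was thus pituitary first, with all 12 libraries above every library of the other tissues, and hypothalamus library 2049 next. Below these, the other hypothalamus libraries, with a median over all 12 of 0.289 CPM, and the uterus libraries, with a median of 0.0933 RPKM, hold at most 33 reads each, and their scales differ. Ovary libraries could not be placed among them, because their limits lie above the level of nearly all hypothalamus libraries.

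Because the gene takes so many reads, the way other pituitary genes appear to follow it depends on the scale. Where CPM was taken over all gene reads, the median Pearson r of 10194 genes with it was -0.63, and 5.27% of genes had a positive r. Where the gene's own reads were left out of the total, the median r was -0.13, and 37.9% were positive. In edgeR fits of the slope on its log2 level with unscaled library sizes, 5137 genes were called with the gene in the library size, 5088 of them lower and 49 higher as it increased, against 1 gene, higher, without it. With TMM scaling, 15 genes were called with it in the library sizes and 15 without it, all higher. It was left out in what follows.

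**Figure D3:**
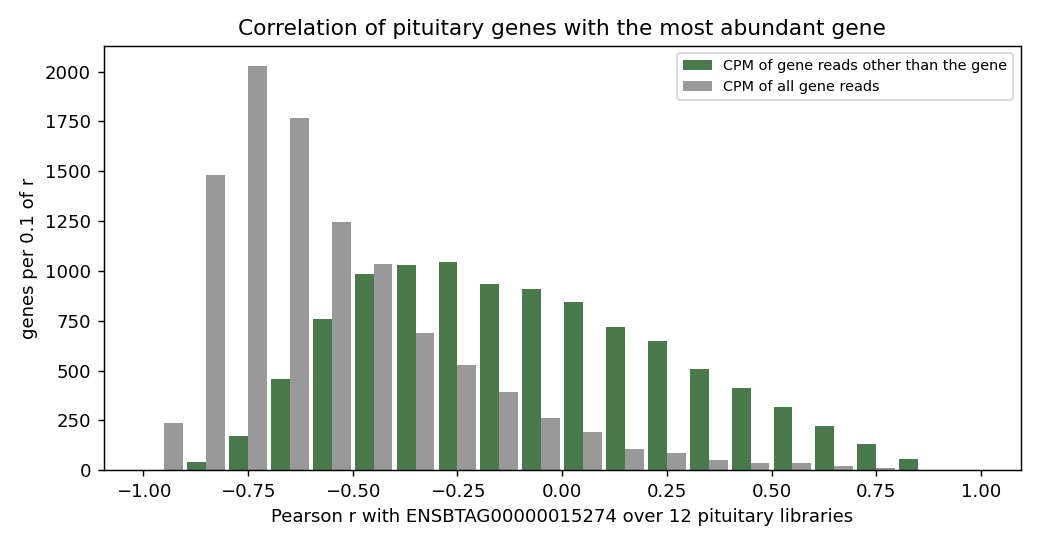
Number of pituitary genes (10194, mean of at least 10 CPM) in each 0.1 of Pearson r with ENSBTAG00000015274 over 12 libraries, with the gene's reads left out of the total (green) or left in (grey). The median lies at -0.13 with them left out and at -0.63 with them left in.

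With the gene left out and TMM scaling, 15 of the 14063 genes (0.107%) covaried with it at an adjusted p under 0.05 (edgeR quasi-likelihood slope, with puberty status in the model), all of them higher where it was higher. Their slopes had a median of 0.75 on the log2 scale per doubling of the gene, from 0.40 to 2.92, and their mean levels ran from 0.751 to 2212 CPM. With library set as a term 3 genes were called. At an unadjusted p under 0.05 there were 1586 genes, 11.3% of those tested.

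The calls changed with most single libraries. Of the 15 genes, 0 were still called without library 2057, 1 without 2056, 2 without 2059, 3 without 2061, 3 without 2060, 4 without 2047, 4 without 2064, 4 without 2055, 4 without 2049, 9 without 2054, 12 without 2048 and 15 without 2046, all with a positive slope where they could be tested. Over all genes the fits called 0 to 10 genes without 1 of these libraries, except 15 without 2048 and 22 without 2046. Of the 9 called without 2049, 2 were lower, as was 1 of the 5 called without 2055. Without both 2057 and 2049, which hold the highest shares, 0 of the 15 were called, while the 13 that could be tested kept a positive slope. DESeq2 called 167 genes, 127 higher and 40 lower, and the fit on ranks of the level called 0. With the percent of reads in no gene as a term, the gene's own reads left out of that percent, 116 genes were called, 56 higher and 60 lower.

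Single genes that tracked the level most closely were taken by the smaller of Pearson's r and Spearman's rho. Highest with it were ENSBTAG00000005652 (r = 0.87, rho = 0.93) and ENSBTAG00000010692 (r = 0.87, rho = 0.92). Most opposed to it were ENSBTAG00000038134 (r = -0.91, rho = -0.92) and ENSBTAG00000015611 (r = -0.91, rho = -0.92). Their unadjusted permutation p was between 2e-05 and 0.00046 for r, but over 10194 genes no adjusted p fell below 0.118 for r or 0.0892 for rho. Hence none of these relations passed the threshold. The smallest p that 100000 permutations allow is 9.9999e-06, so over 10194 genes 1 gene alone could not have passed it. An unadjusted permutation p under 0.05 for r was reached by 1320 genes, 12.9% of those correlated. None of the 4 was among the 15 called by slope. Because they were picked by these values, their r in parts of the same libraries, given below, is a description and no test.

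ENSBTAG00000010692 had 233.0 to 316.4 CPM with a median of 267.9 in post-puberty and 242.3 to 284.9 CPM with a median of 253.5 in pre-puberty pituitaries. Its highest values were in libraries 2057 and 2049, as for the first gene, and the groups overlapped. ENSBTAG00000005652 is lower, at 12.5 to 22.5 CPM (median 14.4) post-puberty and 10.7 to 17.3 CPM (median 15.4) pre-puberty, also highest in 2057. Without 2056 and 2057, the libraries farthest from the median level, r was 0.77 for the first of these and 0.82 for the second.

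ENSBTAG00000038134 had 59.7 to 93.5 CPM (median 73.4) in post-puberty and 56.6 to 89.9 CPM (median 68.3) in pre-puberty pituitaries, lowest in libraries 2049 and 2057 and highest in 2056. ENSBTAG00000015611 had 133.7 to 187.9 CPM (median 163.3) post-puberty and 144.3 to 177.9 CPM (median 165.2) pre-puberty, also highest in 2056 and lowest in 2057. Their r was -0.90 and -0.78 without 2056 and 2057. Within library set 1 the 4 genes had r of 0.90, 0.95, -0.97 and -0.98, and within set 2 of 0.88, 0.69, -0.88 and -0.69, in the order ENSBTAG00000005652, ENSBTAG00000010692, ENSBTAG00000038134 and ENSBTAG00000015611 (6 libraries a set). The genes were picked for high r over both sets together, so these values do not test the relation. As deviations from a line on the percent of reads in no gene, with the first gene's reads left out of that percent, r was 0.87, 0.87, -0.96 and -0.91 in the same order. Where CPM was taken over all gene reads, r was 0.58, -0.45, -0.97 and -0.96 in the same order, so ENSBTAG00000010692 changed sign. All 4 genes spanned far less than the 9.01-fold of the first gene, with slopes of 0.32 (SE 0.08), 0.17 (SE 0.05), -0.21 (SE 0.05) and -0.12 (SE 0.05) per doubling in the same order, at adjusted p from 0.123 to 0.371 (edgeR). No difference with puberty was shown for any of the 4 (edgeR adjusted p = 0.9999 each).

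**Figure D4:**
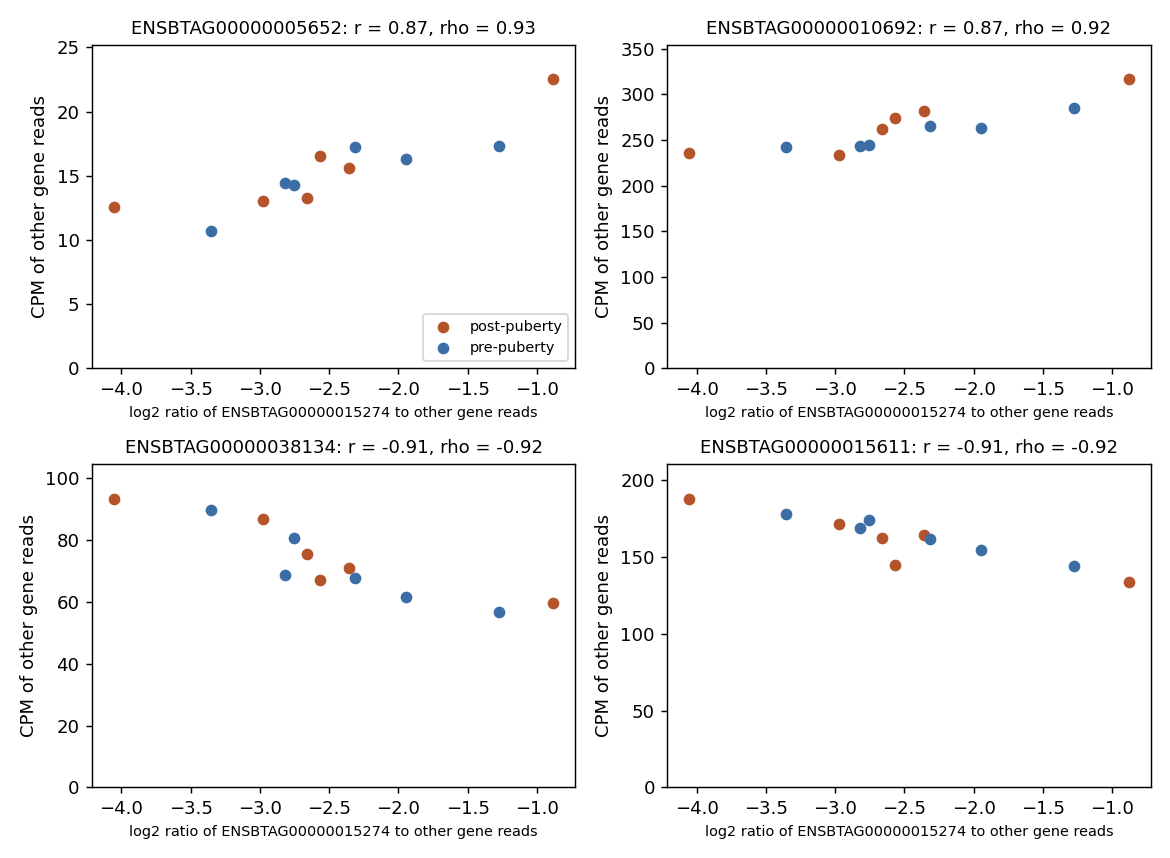
CPM of 4 pituitary genes, counted over gene reads other than ENSBTAG00000015274, against the log2 ratio of that gene to all other gene reads, 1 point per library, with post-puberty and pre-puberty heifers in different colours. The upper 2 genes are higher (r = 0.87 for both) and the lower 2 are lower (r = -0.91 for both) where the ratio is higher, and both colours lie along the same course.

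All 4 were also read in hypothalamus, uterus and liver. In the hypothalamus their means were 8.30 ± 1.78 CPM for ENSBTAG00000005652, 85.2 ± 7.61 CPM for ENSBTAG00000010692, 21.9 ± 4.50 CPM for ENSBTAG00000038134 and 109.8 ± 5.87 CPM for ENSBTAG00000015611 (SD, n = 12). Per length of the gene, they averaged 4.48 ± 2.84, 46.7 ± 11.8, 6.39 ± 1.60 and 22.0 ± 1.56 RPKM in the uterus and 6.30 ± 1.37, 20.03 ± 3.19, 0.755 ± 0.158 and 7.94 ± 0.895 RPKM in the liver, in the same order (SD, n = 12). Neither tissue held more than 0.403 RPKM of the first gene. For the genes ranked 2 and 3 in the pituitary, r with the first was -0.03 and 0.19 and rho was 0.16 and 0.33 (adjusted permutation p of at least 0.626). Within library set 1 their r was 0.08 and 0.21 and within set 2 it was 0.21 and 0.94 (6 libraries a set), so the gene ranked 3, ENSBTAG00000007897, followed the first closely in 1 set and not in the other, a difference that was not tested. ENSBTAG00000017220 was like it in being near 0 in the hypothalamus, and ENSBTAG00000007897 less so, at 20.9 ± 9.13 CPM (SD, n = 12).

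The level was also set beside 4 measures of the libraries themselves. Because the gene's own reads weigh on any percent of all listed reads, they were left out of these totals. With the percent of the remaining reads that fell in no gene, which ran from 58.7% to 64.3%, the log2 level gave r = 0.32 (rho = 0.10), and with the percent not aligned uniquely r = -0.23 (rho = -0.14). With the number of reads other than the gene's it gave r = -0.42 (rho = -0.59), and with the number of genes that had a read r = -0.61 (rho = -0.65). The unadjusted permutation p in this order was 0.303, 0.468, 0.173 and 0.0390 for r and 0.766, 0.668, 0.0460 and 0.0255 for rho. Over these 4 relations no adjusted p was below 0.156 for r or 0.0920 for rho. Without the 2 libraries farthest from each median, r was -0.01, -0.28, -0.67 and -0.51. Within library set 1 it was 0.60, -0.55, -0.60 and -0.74, and within set 2 it was -0.46, -0.16, -0.36 and -0.58. The number of genes with a read is tied to the level in part by construction, since reads of the gene leave fewer for other genes.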

How the data were processed

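RNA was extracted with Trizol and a column kit, made into libraries with a TruSeq kit and sequenced as paired ends, per the labels' protocols. For pituitary, hypothalamus and ovaries the authors deposited raw read counts per gene. Rows for reads in no gene, in several genes or aligned to several places name no gene and stayed out of totals and tests. The median share of listed reads in no gene was 56.4% (pituitary), 58.6% (hypothalamus), 89.7% (left ovary) and 89.8% (right ovary). Liver values were deposited as RPKM and uterus values on a log2 scale without sign, as far as the values show. The submitters' processing notes name genome build UMD3.1. The aligner, the strand setting and the annotation version were not given in the sources used here. Where genes overlap or have close copies, reads may be split or shared between them.

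CPM and shares were computed from the counts. Uterus signs and reads were recovered by searching for library totals and gene lengths that give whole reads within 0.003. Tests used edgeR 4.0.16 (TMM, filterByExpr, quasi-likelihood, Benjamini-Hochberg over all genes tested, threshold 0.05), with DESeq2 1.42.0 and limma 3.58.1 as alternatives, and exact permutations for single values; correlations used 100000 permutations. Where the planned limma test for the uterus could not be used, because the gene failed its filter, and likewise edgeR in the hypothalamus, exact permutations took their place. Scripts were tested on simulated data, with gene lengths known in the test of uterus signs. The covarying genes named are the 2 most positive and 2 most negative, by the smaller of the sizes of r and rho, with a mean of at least 10 CPM. The gene, the named genes' rule and the tests were chosen with earlier results of these data known. RefSeq rows (34142) matched 0 identifiers of the files. Animal numbers pair hypothalamus and pituitary, per the labels. Deviations from group means over 8571 genes had a median r of 0.11 within an animal (lowest 0.02) and -0.01 between animals. Within an animal r was over 0.1 in 6 of 12 animals, and in 5 of 12 the animal's own number correlated best. This check therefore does not settle the pairing of each animal. Within a tissue each library is from its own heifer.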

Additional observations from a re-analysis of the deposited data

Results flagged for a closer look

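In 3 of 18 groups of 5 or 6 libraries 1 value lay further from its neighbours than Dixon's criterion allows. For normally spread values chance gives about 5% of groups. That rate cannot be set against these groups, which share animals and include hypothalamus values where 10 libraries held 7 reads or fewer. Among post-puberty pituitaries the gene took 35.2% of gene reads in animal 2057, against 16.3% in the next. Among post-puberty hypothalami it reached 3.89 CPM in animal 2061, against 1.03 CPM in the next. Among pre-puberty hypothalami it reached 121.7 CPM in animal 2049, against 0.771 CPM in the next.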

How the results depend on the processing

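The share difference in the pituitary changed sign in library set 2 alone (0.0438 points) and ran from -4.52 to 1.78 points when single animals were left out; the log2 change ran from -0.55 to 0.28 and stayed below 0 and uncalled under 6 other settings. The hypothalamus difference ran from -23.7 to 0.681 CPM when single animals were left out and was -4.35 (log2, edgeR, adjusted p = 0.852) without a filter. RLE factors, DESeq2, voom and a set term gave no hypothalamus value, since the row fails the filter. The replicate block by animal moved the tissue difference to 0.80; without single animals it ran from -1.47 to 5.97. Correlation between the tissues ran from -0.12 to 0.51 without single animals. The count of covarying genes was 31 without the status term, 3 with library set as a term, 0 on ranks, 167 by DESeq2 and 23 without a filter, and, chosen after seeing the data, 0 with reads in no gene as a term (a percent whose total holds the gene's reads, so it is tied to the level by construction), 116 with those reads left out of that total, and 0 without libraries 2057 and 2049; it ran from 0 to 22 without single animals. With the gene in the total, ENSBTAG00000010692 turned to r = -0.45 and ENSBTAG00000005652 fell to 0.58. In the uterus the change ran from -0.33 to -0.17 without single animals, kept its sign under 5 settings, and was 3.32 for values as deposited, whose sign is lost (an alternative added after seeing the data). Ovaries and liver, all at 0, gave no value to test. The small number of reads in genes limits the ovaries most.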
